A study of Mus musculus with 3 samples.

Results

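NR2F2 binding was mapped by ChIP-seq in whole testes of E14.5 CD-1 mouse embryos, and 1880 of the 10069 deposited peaks (18.7%) lay directly over a transcription start site (TSS) with a single reading direction. These peaks were chosen by position: each overlapped the start of a curated RefSeq transcript, and every TSS within 1 kb of its edges belonged to genes of the same strand. The peaks were all 300 bp wide. Of the 1880 peaks, 1864 overlapped the TSS of 1 gene and 16 overlapped TSSs of 2 genes read in the same direction, so that a few of them were not single-gene promoters in the strict sense. Together they touched 1890 genes, or 7.22% of the 26180 genes with a curated transcript.

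The groups were 1 input library and 2 NR2F2 ChIP libraries, all from testes of CD-1 embryos at that age, freed of the mesonephros, with no genotype or treatment that set them apart. The ChIP used an antibody to COUP-TFII. Each ChIP used chromatin pooled from many gonads, so no library stands for 1 animal, and binding in different cell types of the testis could not be told apart. Counts at the 10069 peaks summed to 73251 in the input, 426784 in ChIP replicate 1 and 364261 in ChIP replicate 2. These sums cover peaks only and are not library depths, which were unknown. Peaks had been called on the merged replicates, so an excess of ChIP over input counts was built into the choice of peaks and is not a finding here.

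NR2F2, also named COUP-TFII, is an orphan nuclear receptor that marks mesenchymal and interstitial cells of the fetal gonad and is known for its roles in mesenchyme, vessels and steroidogenic progenitors. Nuclear receptors of this family recognise the hexamer AGGTCA or GGGTCA, here called the core motif, and bind as dimers to a pair of such hexamers. A pair read in the same direction is a direct repeat, and DR1 stands for a repeat with 1 base between the copies. A promoter with a single reading direction is the place where polymerase starts on 1 gene, so a peak there can be assigned to that gene with fewer alternatives than a peak between genes.

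A direct repeat of the core motif, with up to 1 mismatch in one copy, was present in 13 of the 20 TSS peaks with the most ChIP reads. The 8 strongest that held a direct repeat are given as 30 bases around the repeat, because such pairs were more frequent at strong than at weak TSS peaks. Sequences run 5′ to 3′ on the strand where the repeat reads forward (mm10, read from the GRCm38.p6 reference), and capitals mark the direct repeat, with at most 1 mismatch in the copy that is not an exact core motif.
Mrps28 (DR1, chr3:8923799-8923828, minus strand): gtgcagaagAGGTCAGAGGTCGcgcaggcg
Ndufs6 (DR1, chr13:73328447-73328476, minus strand): cgacgcgtgGGGTCAAGGGTCAccggcaag
Guf1 (DR2, chr5:69556881-69556910, minus strand): ctacgcggGGGTCGAAAGGTCAgggatggg
Pold3 (DR1, chr7:100121495-100121524, plus strand): tcactctcGGGTCACAGGTCGtctcccagg
Pam16 (DR1, chr16:4624917-4624946, plus strand): ttgctggtGGGTCAGAGGTCAagggagacc
Zfp513 (DR1, chr5:31201975-31202004, minus strand): aatgcgaggGGGTCAAAGGTCAggggtcag
Hikeshi (DR1, chr7:89941151-89941180, minus strand): aggaaggaaGGGTCAGAGGTCGccggccca
Dedd (DR1, chr1:171328971-171329000, minus strand): ggtgaactgAGGTGAAAGGTCAcgatctgg

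Of these repeats, 7 had a spacing of 1 base and 3 had both copies exact, those at Ndufs6, Pam16 and Zfp513. At Zfp513 the copy AGGTCA also pairs with the GGGTCA that follows it, left in lower case, so that peak held 2 overlapping repeats. The repeats of Mrps28, Ndufs6, Pam16 and Hikeshi fell in the annotated 5′ UTR, between 15 and 44 bp downstream of the TSS. The repeat of Zfp513 fell in a coding exon 53 bp downstream, and those of Pold3 and Guf1 lay 9 bp and 28.5 bp upstream of the TSS, outside annotated genes. The repeat at Dedd was placed 160 bp before the nearest start, within the intron of a transcript that begins earlier. Ulk2 and Thoc2, which are described further on, held 1 unpaired core motif each, in capitals for comparison with the pairs.
Ulk2 (chr11:61855317-61855346, minus strand): gagggtggcttcAGGTCAgggcgtggcggg
Thoc2 (chrX:41911908-41911937, plus strand): ctcccgagcgcgGGGTCAaaggggagcgcc

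The strongest TSS peak lay over the start of Mrps28, a protein of the small subunit of the mitochondrial ribosome (chr3:8923562-8923861). It had 11 input reads, 270 reads in ChIP replicate 1 and 210 in replicate 2. Its log2 ratio of ChIP to input, set relative to the typical peak by TMM scaling, was 2.12 ± 0.33 (SE, adjusted p = 3.1e-07, edgeR). Ndufs6, an accessory subunit of respiratory complex I, had the second strongest peak (chr13:73328249-73328548), with 9 input reads and 196 and 198 ChIP reads. Its log2 ratio was 2.14 ± 0.37 (adjusted p = 6.4e-06). Both ChIP libraries stood far above the input at these genes and differed little from each other at Ndufs6. Guf1, a GTPase of mitochondrial translation, had 5 input reads against 169 and 206 ChIP reads (chr5:69556720-69557019), a log2 ratio of 2.91 ± 0.43 (adjusted p = 7.5e-08). Pam16, part of the motor that pulls proteins into the mitochondrial matrix, had 11 input reads against 188 and 149 (chr16:4624726-4625025), a log2 ratio of 1.61 ± 0.36 (adjusted p = 0.0018).

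Other strong peaks belonged to genes with quite different roles. Nr2c1, itself an orphan nuclear receptor that binds direct repeats, had 6 input reads against 185 and 182 (chr10:94147871-94148170), a log2 ratio of 2.61 ± 0.42 (adjusted p = 6.8e-07). Pold3, an accessory subunit of DNA polymerase delta, had only 3 input reads against 192 and 169 (chr7:100121348-100121647). The mean ChIP count of Pold3 was 60.2 times its input count (exact 95% interval 20.4 to 293, counting error only, not scaled for depth). Zfp513, a zinc finger regulator of transcription, had 8 input reads against 186 and 146 (chr5:31201851-31202150), a log2 ratio of 2.05 ± 0.40 (adjusted p = 0.00011). The 7 peaks described so far all passed the edgeR test. Pam16 lost its call with DESeq2 size factors (adjusted p = 0.076, edgeR) and with DESeq2 (0.14), and Zfp513 lost it with DESeq2 (0.077). Adjusted p was much larger at the others as well. With DESeq2 size factors it was 0.012 at Mrps28, 0.030 at Ndufs6 and 0.036 at Guf1 (edgeR).

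**Figure D1:**
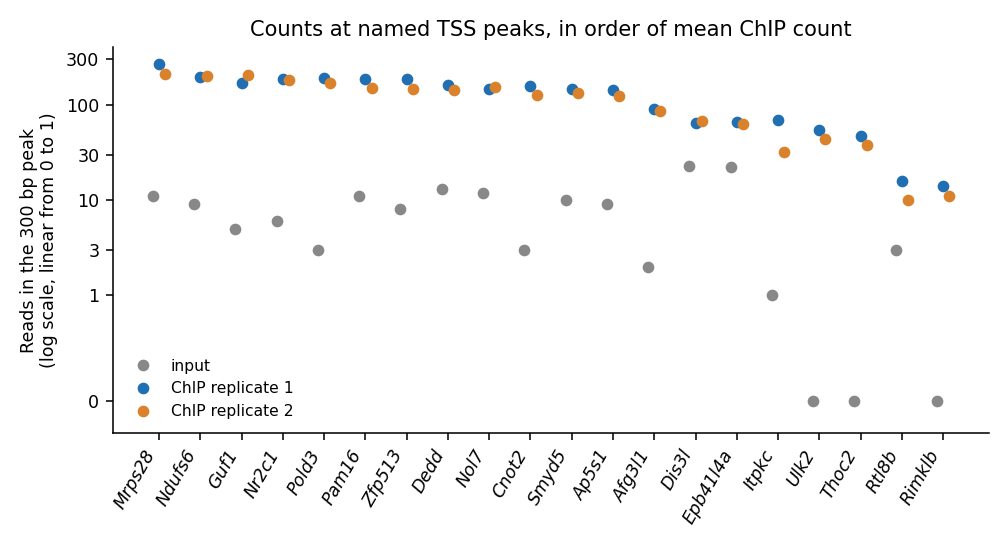
Reads in the 300 bp peak for 20 named TSS peaks, ordered by mean ChIP count, on a log axis that is linear from 0 to 1. Grey points are the input and coloured points the ChIP replicates; both ChIP points lie above the input at each gene, by least at Dis3l and Epb41l4a, whose inputs are the highest.

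Relative to the typical peak, 39 of the 1880 TSS peaks (2.07%) were called higher by edgeR, where 154 of all 10069 peaks (1.53%) were called higher. None of the TSS peaks was called lower, where 5 of all peaks (0.0497%) were. At an unadjusted p under 0.05, 188 TSS peaks were higher and 39 were lower, where 792 and 257 of the 10064 peaks on chromosomes were. The count of higher calls changed with the settings: 10 TSS peaks (0.532%) were called with the size factors of DESeq2 in the same test, against 0.387% of all peaks, and 6 (0.319%, against 0.218%) by DESeq2 itself, which also called none lower and gave most peaks no adjusted p. With 1 input library, the test took the spread of the input from that of the 2 ChIP libraries.

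Some of the largest ratios among the called TSS peaks came from inputs of few or no reads. Ulk2, a kinase that starts autophagy, had 0 input reads and 54 and 44 ChIP reads, and Thoc2, a subunit of the THO complex in mRNA export, had 0 input reads and 47 and 38. Against a floor of 3 counts per library, the raw counts of the 2 ChIP replicates were 18.0-fold and 14.7-fold higher at Ulk2. At Thoc2 they were 15.7-fold and 12.7-fold higher. These folds are not scaled for depth and leave out counting error. Cnot2, a subunit of the CCR4-NOT deadenylase, had 3 input reads and 157 and 127 ChIP reads. Its ratio of raw counts was 47.3 (exact 95% interval 16.0 to 231). Afg3l1, a protease of the inner mitochondrial membrane, had 2 input reads and 91 and 86 ChIP reads, with the interval of its ratio reaching from 12.1 to 368. Itpkc, an inositol trisphosphate kinase, had 1 input read and 70 and 32 ChIP reads, and its interval was wider still, from 8.95 to 2034. In all, 15 of the 39 called TSS peaks had 3 input reads or fewer, as did 210 of the 1880. Ulk2, Thoc2, Afg3l1 and Itpkc were not called with DESeq2 size factors (adjusted p from 0.084 to 0.40, edgeR), nor was Itpkc without TMM (0.078).

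The smallest ratios among the called peaks belonged to Dedd, a death effector domain protein, Nol7, a nucleolar protein, Smyd5, a SET domain protein, and Ap5s1, a subunit of the AP-5 adaptor. Dedd had 13 input reads and 160 and 143 ChIP reads (log2 ratio 1.22 ± 0.36, adjusted p = 0.042). Nol7 had 12 input reads and 147 and 152 ChIP reads (log2 ratio 1.32 ± 0.37, adjusted p = 0.027). Smyd5 had 10 input reads with 146 and 133 ChIP reads, and Ap5s1 had 9 with 142 and 125. None of these 4 was called with DESeq2 size factors (adjusted p from 0.14 to 0.23, edgeR) or by DESeq2 (0.22 to 0.30), and of the 4 only Ap5s1 was called without TMM.

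At the other end of the range, Rimklb, an enzyme that joins glutamate to N-acetylaspartate, had 0 input reads and 14 and 11 ChIP reads. Rtl8b, an X-linked gene derived from a retrotransposon, had 3 input reads and 16 and 10 ChIP reads, so that the 95% interval of its ratio of 4.33 reached from 1.33 to 22.4. The highest inputs were found at Dis3l, an exosome ribonuclease, with 23 reads against 64 and 67, and at Epb41l4a, a band 4.1 family protein, with 22 against 66 and 63. Dis3l had a log2 ratio of -0.80 ± 0.37 (adjusted p = 0.40) and Epb41l4a one of -0.76 ± 0.38 (adjusted p = 0.46), so neither passed the test.

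Across all 1880 TSS peaks, the median count was 7 in the input (range 0 to 23), 41 in ChIP replicate 1 (range 12 to 270) and 32 in replicate 2 (range 8 to 210). The median ratio of ChIP to input counts, with 0.5 added to each, was 5.55 with the first ChIP replicate and 4.40 with the second (mean 4.97 ± 0.81, SD, n = 2). ChIP counts exceeded the input in both replicates at 1879 of the 1880 peaks. Across peaks, the counts of the 2 replicates had a Spearman rho of 0.825, and the input had a rho of 0.444 with replicate 1 and 0.420 with replicate 2. Those correlations are across peaks of the same libraries and describe these libraries only.

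The TSS peaks were compared with the 560 peaks over TSSs on both strands and with the 3309 peaks over 10 kb from any TSS. Their median log2 ratio was lower than that of the TSS peaks on both strands by 0.03 in replicate 1 and 0.04 in replicate 2 (mean difference -0.04 ± 0.01, SD, n = 2, and -0.081 with a pseudocount of 5). Against the distant peaks it was higher by 0.31 in replicate 1 but by 0.10 in replicate 2 (mean 0.20 ± 0.15), so this difference depended on which ChIP library was used. The median counts at the distant peaks were 7, 30 and 28. Single-strand TSS peaks held 19.3% of the input counts at peaks (Wilson 95% interval 19.0 to 19.6), 20.7% of those of ChIP replicate 1 (20.6 to 20.8) and 19.4% of those of replicate 2 (19.3 to 19.6). The ChIP libraries exceeded the input by 0.80 percentage points on average, by 1.44 without replicate 2 and by 0.17 without replicate 1. An exact two-sided permutation test of the 3 library labels gave p = 0.667, where the smallest p that 3 arrangements allow is 0.333.

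**Figure D2:**
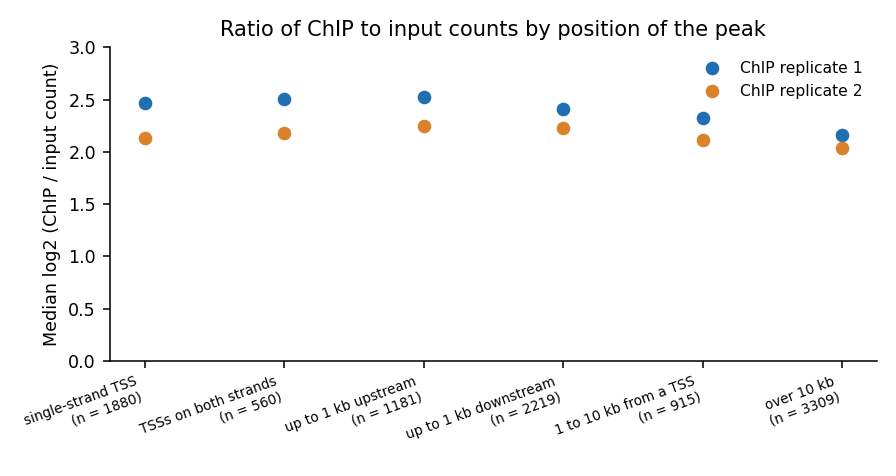
Median log2 ratio of ChIP to input counts for peaks grouped by position, with 1 point a ChIP replicate and the number of peaks under each group. Single-strand TSS peaks sit at 2.47 and 2.14, next to those over TSSs on both strands (2.50 and 2.18), and peaks over 10 kb from a TSS are the lowest in both replicates (2.16 and 2.04).

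No single-strand TSS peak differed between the ChIP replicates by an exact binomial test adjusted over all peaks, where 10 of all 10069 peaks (0.0993%) did and, again, 0 of the 560 TSS peaks on both strands. At an unadjusted p under 0.05, 145 of the TSS peaks (7.71%) and 885 of the 10064 peaks on chromosomes (8.79%) did. Replicate 1 supplied 55.5% of the ChIP counts at the TSS peaks (95% interval 55.3 to 55.8), against 54.0% at all peaks. The share was 55.4% at TSS peaks on both strands (55.0 to 55.8) and 52.8% at the distant peaks (52.6 to 53.0). Median GC content was 65.7% at the TSS peaks and 52.3% at the distant ones. Among the 15 TSS peaks with at most 50% GC, replicate 1 supplied 48.5% of the ChIP counts, against 55.2% to 55.7% in the 3 bins of higher GC. The part of base composition in this difference between replicates was not tested.

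The peak centres lay mostly downstream of the start. The median centre was 45.5 bp downstream of the nearest overlapped TSS, and the central 50% of peaks ranged from -43.5 to 99.5 bp. In 1228 of the 1880 peaks (65.3%) the centre was downstream, and 652 had it upstream. The same side prevailed just beyond the start, with 2219 peaks up to 1 kb downstream and 1181 up to 1 kb upstream. Counts did not follow this asymmetry: the medians were 7, 40 and 32 reads in the input and the 2 ChIP replicates where the centre was upstream and 7, 42 and 33 where it was downstream. The median log2 ratios were 2.50 and 2.20 upstream and 2.45 and 2.10 downstream.

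**Figure D3:**
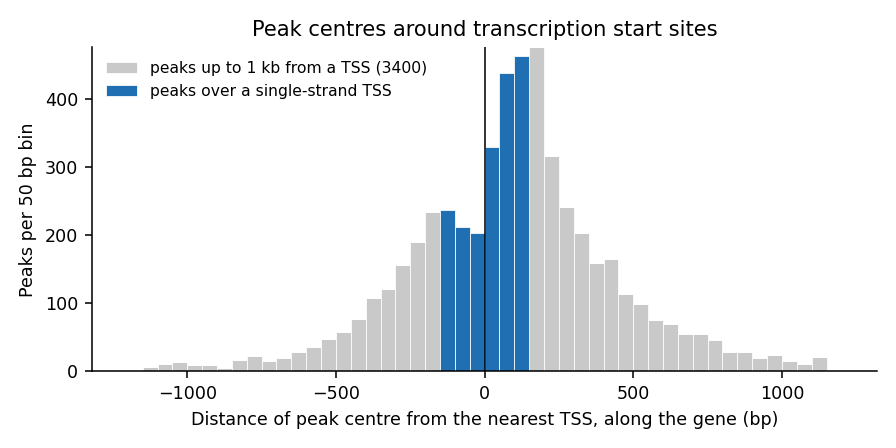
Number of peaks per 50 bp of distance between the peak centre and the nearest TSS, along the direction of the gene, for single-strand TSS peaks (blue, stacked on grey) and for peaks that lie up to 1 kb from a TSS (grey). The profile leans downstream: 1228 of the 1880 TSS peaks have their centre past the start.

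The centres fell in a 5′ UTR in 798 peaks, outside genes in 551, in a coding exon in 250, in an intron in 246 and in non-coding exons in 35. The overlapped transcripts were coding only in 1658 peaks, coding and non-coding in 146, and non-coding only in 76. The non-coding starts had medians of 8, 42 and 36 reads, close to the 7, 41 and 32 of the coding ones. For 272 TSS peaks, the gene had starts more than 500 bp apart, and 127 of these peaks covered the outermost start while 145 covered an inner one. Only 84 of the 1880 had another peak within 1 kb.

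A peak over more than 1 start was found in 6 genes. Eno1, the glycolytic enolase, had 6 input reads with 79 and 77 ChIP reads at one start, and 11 with 75 and 64 at the other. Rnf4, a ubiquitin ligase that recognises SUMO chains, had 11 with 56 and 30 and 8 with 43 and 37. Ppp1r3b, a subunit that directs a phosphatase to glycogen, had 13 with 30 and 29 and 9 with 44 and 31. Akap7, Dhx30 and Hnrnph1 completed the set.

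The sequences under the TSS peaks were of the CpG island type, with a median ratio of observed to expected CpG of 0.83 against 0.24 at the distant peaks. Peaks nearby were similar, with 0.84 at TSS peaks on both strands, 0.72 up to 1 kb upstream and 0.77 up to 1 kb downstream. The core motif (AGGTCA or GGGTCA, either strand) was present in 837 of the 1880 TSS peaks, 44.5% (95% interval 42.3 to 46.8), in 74.7% of the distant peaks and in 58.9% of all peaks. Any direct repeat with 0 to 5 bases between the copies, of which one could have 1 mismatch, was present in 180 TSS peaks (9.57%), against 32.1% of the distant peaks and 20.3% of all peaks. With both copies exact the share was 1.12%, against 8.49% of the distant peaks. DR1 was present in 3.30%, against 11.2% and 7.08%. The extended motif TCAAGGTCA, which contains a core motif, was found in 14 TSS peaks (0.745%) and in 5.29% of the distant ones. Motif shares depend on base composition, whose part in these differences was not tested.

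Several motifs of general promoter factors showed the opposite order, and the TSS peaks on both strands held the core motif in 47.9%, the GC box in 62.9% and the ETS motif in 27.0%. The GC box GGGCGG, read by Sp and Klf factors, was found in 65.5% of the TSS peaks, 12.4% of the distant peaks and 39.5% of all peaks. CCGGAAG, read by ETS factors, was found in 24.5%, 2.93% and 10.6%. ATGGCGG, read by YY1, was found in 15.5%, 1.45% and 7.07%, and TGACGTCA, read by CREB and ATF factors, in 4.79%, 0.635% and 1.62%. GCATGCGC, read by NRF1, was found in 5.37% of TSS peaks against 0.967% of distant peaks, CACGTG in 13.1% against 6.83%, and CTCGCGAG in 1.86% against 0.181%. CCAAT, read by NF-Y, was near equal at 27.6% and 28.6%, while TATAAA (2.82% against 8.04%) and the GATA motif AGATAA (2.71% against 13.1%) were less frequent at the TSS peaks. Dusp28 had the strongest TSS peak with no core motif, ranked 19 of 1880, with 11 input reads and 128 and 137 ChIP reads. A GC box, in capitals, lay just upstream of its start, and this peak was picked after its values were seen.
Dusp28 (chr1:92906960-92906989, minus strand): caccagctcgttGGGCGGagcctttcctgt

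Windows of 300 bp around 2000 starts under these peaks were set against windows around 24999 single-strand starts that no peak overlapped. The core motif was in 38.5% of the former and 25.2% of the latter, and DR1 in 2.75% and 0.868%. The GC box was in 67.3% and 38.9%, and the ETS motif in 24.6% and 7.38%. Median GC was 65.3% and 55.3%, so starts under a peak were also richer in GC, and 87.8% of them against 38.4% had an observed to expected CpG ratio above 0.6.

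Among the TSS peaks themselves, core motifs were more frequent at higher ChIP counts. In quartiles of 470 peaks ordered from weak to strong mean ChIP count, the core motif was present in 31.3%, 34.5%, 42.6% and 69.8%, and a direct repeat in 5.32%, 4.89%, 7.02% and 21.1%. DR1 was present in 1.70%, 0.851%, 1.49% and 9.15%. The step lay in the strongest quartile, which began at a mean of 50 reads. The ETS motif (19.6%, 24.3%, 30.0%, 24.0%) and the GC box (60.4%, 65.3%, 66.4%, 70.0%) showed no such step in this order. Ordered by the ratio of ChIP to input instead, the GC box was most frequent in the top quartile as well (60.6%, 64.3%, 62.1% and 75.1% in replicate 1), as was the core motif (31.7%, 41.9%, 42.6% and 61.9%). Ordered by the input count instead, the core motif ran at 43.0%, 40.4%, 45.5% and 49.1%, and median GC stayed between 64.7% and 66.0% over the ChIP quartiles.

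**Figure D4:**
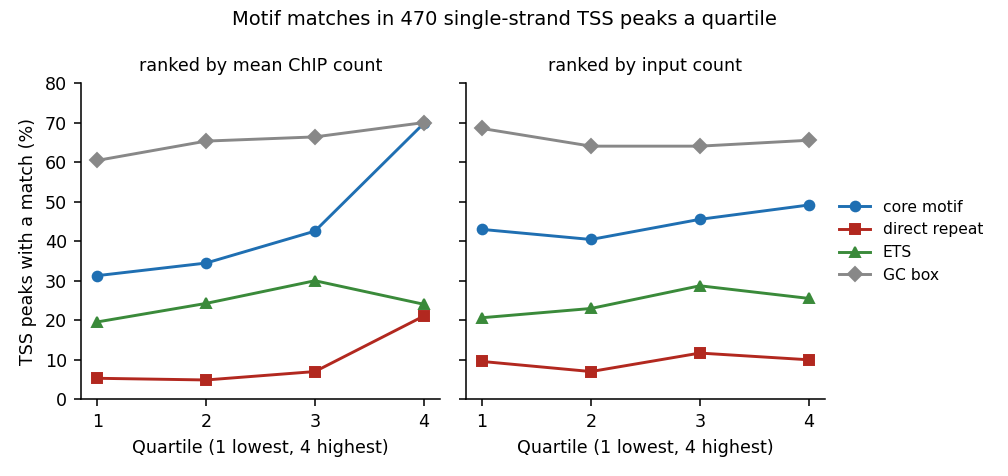
Percentage of single-strand TSS peaks with a match to each motif, in quartiles of 470 peaks by mean ChIP count (left) and by input count (right). The core motif runs from 31.3% to 69.8% and the direct repeat from 5.32% to 21.1% with ChIP count, while by input count the core motif stays between 40.4% and 49.1%.

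TSS peaks with a core motif had medians of 8 input reads and 48 and 38 ChIP reads, and those without had 7, 37 and 29. The median log2 ratio of the former was higher by 0.25 in replicate 1 and 0.27 in replicate 2 (mean 0.26 ± 0.01, SD, n = 2). The gap was larger for pairs. The 180 peaks with a direct repeat were higher than the rest by 0.48 ± 0.01, and the 62 with DR1, with medians of 7.5 input reads and 76.5 and 66.5 ChIP reads, by 0.88 ± 0.06. Repeats of the other spacings had mean gaps of 0.18 (DR0, 29 peaks) to 0.48 (DR2, 29 peaks). For the ETS motif the gap was -0.05 ± 0.02 and for the GC box 0.11 ± 0.02. The gaps of the core motif, the repeats, the GC box and the ETS motif given here with an SD all exceeded that SD. The SD leaves out the error of the input, which both replicates share, and no test was run, since peaks are not replicates.

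Of the 39 TSS peaks called above the typical peak, 36 held a core motif and 20 a direct repeat. The 20 strongest TSS peaks by ChIP count included 19 with a core motif, 13 with a direct repeat and 10 with DR1. In the strongest quartile, the core motif nearest to the centre was a median of 45.5 bp away, and 55.5% of the peaks with a motif had one within 50 bp, against 45.6% in the weakest quartile and 65.7% at the distant peaks. Core motifs lay on both sides of the start, with 582 of 1083 (53.7%) downstream and a median position of 11 bp.

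Genes of energy metabolism and protein synthesis supplied several of the strongest TSS peaks, and their counts are set beside the 7.22% of all genes that had such a peak. For respiratory complex I, 13 of 37 genes had a single-strand TSS peak, with medians of 9 input reads and 63 and 49 ChIP reads. Ndufb7 had 17 input reads with 154 and 119 ChIP reads and Ndufb2 had 10 with 94 and 60; Ndufs6 was the 1 member called, where 39 of all 1880 TSS peaks were. For complexes III to V, 8 of 44 genes had a peak, led by Atp5g2 (14 with 142 and 111), Atp5mpl (10 with 115 and 111) and Uqcrq (3 with 75 and 55). The TCA cycle had 6 of 21 genes, among them Idh3a (10 with 84 and 51), Sdhb (11 with 65 and 44) and Fh1 (7 with 50 and 33). None of the peaks of complexes III to V or of the TCA cycle was called, although Atp5mpl passed when only peaks with at least 10 input counts were fitted (adjusted p = 0.021, edgeR).

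The mitochondrial ribosome had 17 of 75 genes, of which 1 was called (Mrps28), where 39 of all 1880 TSS peaks (2.07%) were. Mrpl11 (13 input reads with 132 and 146 ChIP reads) and Mrpl45 (11 with 63 and 55) did not pass the test. Mrpl11 passed with at least 10 input counts (adjusted p = 0.014, edgeR). The cytosolic ribosome had 23 of 82 genes, led by Rpl34 (16 with 102 and 97), Rpl11 (6 with 98 and 76) and Rpl3 (13 with 74 and 82), none of them called. The median log2 ratio was 0.23 for complex I, 0.87 for complexes III to V, 0.27 for the mitochondrial ribosome and 0.15 for the cytosolic ribosome, beside 0.07 for all 1880 TSS peaks and 0.02 for all peaks. Genes with symbols of translation factors, which include a few enzymes that modify these factors, had 11 of 72, led by Eif4e, which binds the mRNA cap (10 with 63 and 59). Splicing factors had 11 of 69, led by Hnrnph1 (7 with 50 and 53), and the proteasome 8 of 39, led by Psma3 (7 with 58 and 45). Their medians were 0.09, -0.04 and -0.32, with no member called.

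**Figure D5:**
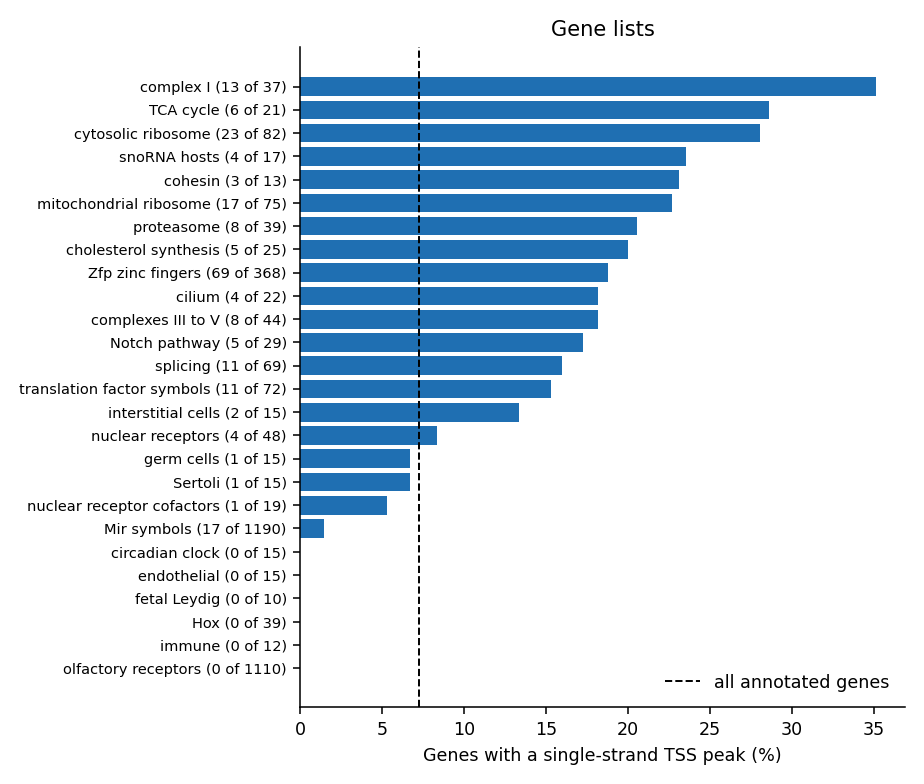
Percentage of the genes of each list that have a single-strand TSS peak, with the number of genes in brackets and the share of all annotated genes as a dashed line. Complex I leads with 13 of 37 genes, and 6 lists, among them the olfactory receptors, have none.

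Of the transcriptional regulators, 69 of 368 genes named Zfp had a peak, with 1 called (Zfp513), where 39 of all 1880 TSS peaks (2.07%) were. Zfp513 was followed by Zfp672 (9 input reads with 133 and 101 ChIP reads) and Zfp689 (8 with 102 and 103). Nuclear receptors had 4 of 48: Nr2c1, which was called, Rarb, a retinoic acid receptor (11 with 44 and 25), Ppara, a fatty acid sensor (5 with 30 and 29), and Nr0b1, a corepressor of steroidogenic genes (4 with 20 and 16). NR2F2 itself had no peak over its own TSS. Of 19 nuclear receptor cofactors, only Tbl1x had one (1 with 26 and 19), while 11 others had a peak up to 1 kb away. Of the Notch pathway, which keeps interstitial progenitors undifferentiated, 5 of 29 genes had a peak, among them Aph1a, a secretase gene (6 with 51 and 45), and Adam17, a sheddase (10 with 59 and 40), and none was called.

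Cholesterol synthesis, which feeds steroid production, had 5 of 25 genes, led by Cyp51 (16 input reads with 52 and 49 ChIP reads), Idi1 (13 with 36 and 25) and Sc5d (3 with 41 and 18). Cohesin genes had 3 of 13, namely Esco1 (9 with 59 and 43), Pds5b (2 with 24 and 32) and Rad21 (1 with 20 and 18). Cilium genes had 4 of 22, led by Bbs10 (10 with 57 and 55), Ift172 (12 with 54 and 34) and Ift81 (12 with 31 and 33). Among hosts of snoRNAs, 4 of 17 had a peak, led by Snhg20 (11 with 120 and 110), Snhg12 (7 with 57 and 38) and Snhg7 (9 with 44 and 42). None of these members was called, although Snhg20 passed with at least 10 input counts (adjusted p = 0.032, edgeR). Gene symbols that begin with Mir had 17 of 1190, one of them the host gene Mir99ahg, and for the others the annotated start is that of the hairpin rather than of the primary transcript. The peak with the most ChIP reads, at Mir5100 (6 with 86 and 72), also covered the start of the coding gene Mief2. It was followed by Mir145a (8 with 72 and 82) and Mir7653 (15 with 67 and 52).

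Counts of cell type marker genes with a peak over the start were small, and 7.22% of all genes would be about 1 gene or fewer in each cell type list. Of 15 interstitial genes, a list taken from genes the study names with its results in view, and therefore no independent evidence, 2 had one, among them Tmsb10 (6 input reads with 39 and 27 ChIP reads). None of the 10 fetal Leydig genes, also drawn from the study's text, had one. Sertoli cell genes had 1 of 15 (Nr0b1) and germ cell genes 1 of 15, Prdm1, a repressor that specifies germ cells (5 with 22 and 12). Endothelial genes had 0 of 15, immune genes 0 of 12, circadian clock genes 0 of 15, Hox genes 0 of 39 and olfactory receptors 0 of 1110. A peak up to 1 kb from the start, with none over it, was present at 3 interstitial, 1 fetal Leydig and 2 Sertoli cell genes. The same held for 1 germ cell, 5 endothelial, 6 clock, 1 Hox and 1 olfactory receptor gene and for 0 immune genes. Absence over the start is therefore not absence of binding near it.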

How the data were processed

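Whole E14.5 testes gave 1 input and 2 NR2F2 ChIP libraries. The authors trimmed reads with Trim Galore 0.6.7, aligned them to mm10 with Bowtie2, removed duplicates with Picard 1.110, called peaks on the merged replicates with HOMER 4.11.1, resized them to 300 bp and deposited a raw read count per peak and library. The rule that assigned reads to peaks was not stated in the sources read here. Deduplicated reads are not proven molecules, so intervals cover counting error only.

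Peaks were placed on the curated transcripts of RefSeq (GRCm38.p6, the assembly of mm10). ChIP and input counts were compared with edgeR 4.0.16 (quasi-likelihood test, TMM factors from all 10069 peaks, Benjamini-Hochberg adjustment, threshold 0.05), the replicates with an exact binomial test, and library shares with an exact permutation test. Ratios used a pseudocount of 0.5. DESeq2 1.42.0, other scalings, input minimum, pseudocounts and annotations were tried as alternatives. The edgeR and binomial tests were also run on simulated counts, and the outcome is not given here. Motifs were matched on both strands, and a match is not a binding site.

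Named peaks were those with the highest ChIP counts (8), the largest (6) and smallest (4) called ratios, the lowest ChIP counts (2) and highest inputs (2), up to 3 genes of each list, and genes with the most members. The members and gene lists were chosen with earlier results of these data known. The replicates are separate ChIP experiments on pooled testes. The edgeR p-values rest on the spread between these ChIP pools, since the input library has no replicate. Those of the binomial test assume counting error only and hold no estimate of the spread between pools. A list of histone genes by older symbols matched no annotated gene and was dropped. Some items are not reported here.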

Additional observations from a re-analysis of the deposited data

How the results depend on the processing

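The number of TSS peaks called above the typical peak was 39, and it fell to 10 with DESeq2 size factors (39 of all peaks), to 6 with the DESeq2 Wald test (22 of all peaks, with no adjusted p for 9370) and to 17 among the 520 with at least 10 input counts (58 of all 2427). It was 26 without TMM (102 of all peaks), where the median of all peaks was -0.10 against 0.02 and 1 TSS peak was called lower (7 of all peaks), 39 with robust fitting or 1 strand within 2 kb, and 36 with predicted transcripts. The causes of these moves were not tested, except that the input minimum leaves fewer peaks. No called named peak changed direction in the fits that gave it a value. With the input minimum 3 more passed (Mrpl11, Snhg20 and Atp5mpl). Of the called named peaks, 9 lost their call with DESeq2 size factors, 4 without TMM and 8 with DESeq2. Besides these 8, DESeq2 gave no adjusted p for Afg3l1, Itpkc, Ulk2 and Thoc2, so it did not call them either. Using the totals at the TSS peaks as the expected share, 1 of them differed between replicates (30 of all peaks).

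The median ratio of 4.97 moved to 3.42 with a pseudocount of 5, to 3.89 with at least 10 input counts, and between 4.40 and 5.55 with 1 ChIP replicate left out. The log2 difference from TSS peaks on both strands moved to -0.081, -0.058 and -0.050 with the pseudocount, the input minimum and 2 kb, and between -0.04 and -0.03 with 1 replicate left out. That from distant peaks kept its sign in each alternative (0.10 to 0.31 with 1 replicate left out), as did the share of counts (0.17 to 1.44 percentage points). The core motif share was 36.4% in the central 200 bp and 23.4% for AGGTCA alone (66.1% and 55.7% at distant peaks). The direct repeat share was 1.12% with both copies exact (8.49% at distant peaks). The median centre was 62.5 bp downstream of the 5′-most TSS. No paired analysis was possible because the input has 1 library and its label carries no replicate number. Input counts of 7 at the median limit the ratio of any single peak.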

Other observations

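The X chromosome carried 54 of the single-strand TSS peaks, and 202 peaks in all. Their median counts were 4 in the input (range 0 to 9), 23 in ChIP replicate 1 and 19.5 in replicate 2, against 7, 42 and 33 at the 1826 autosomal ones. The median log2 ratios were 2.54 and 2.20 on the X and 2.47 and 2.13 on the autosomes, so the lower counts were seen in the input and the ChIP alike. The other 148 X-linked peaks had median input counts of 3. Above the typical peak, 1 of the 54 X-linked peaks (Thoc2) and 38 of the 1826 autosomal ones were called.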
